A study of Mus musculus with 12 samples.

Results

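The axon guidance ligands and receptors examined here were the semaphorins of classes 3 to 7, their plexin receptors, the ephrins and Eph receptors, the Slits and Robo receptors, the netrins, and the netrin receptors Dcc and Unc5. They were chosen by symbol, and 66 of the 24470 genes in the counted annotation matched (35 ligands and 31 receptors). Whole fetal testes were taken from mice at E14.5 for bulk RNA-seq, with 6 control libraries and 6 Nr2f2 cKO libraries, each from 3 pooled testes. Control testes were Nr2f2 f/f and therefore also carried the floxed alleles, while cKO testes carried a Wt1-driven CreER together with the floxed alleles, and tamoxifen was given at E11.5 and E12.5. NR2F2 is an orphan nuclear receptor of the interstitial cells between the testis cords, and the comparison asked which transcripts of the fetal testis differ in level after its deletion. The authors reported that deletion was incomplete and that these cKO testes had fewer interstitial and fetal Leydig cells. The Cre acts in cells that express Wt1 around the time of tamoxifen, which include the somatic progenitors, and the floxed allele expresses LacZ once it is recombined. Nr2f2 itself ranged from 163 to 186 CPM (counts relative to library size, with TMM scaling) in control and from 50.2 to 119 CPM in cKO testes, so transcript remained in every cKO pool. The log2 fold change of cKO relative to control was -1.21 ± 0.16 (standard error, SE; adjusted p = 0.000548 from edgeR).

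Guidance molecules were first studied in growing axons, and the same proteins steer migrating cells, blood vessels and epithelia. Semaphorins signal through plexins, and the secreted class 3 semaphorins usually need a neuropilin as a co-receptor. Ephrins stay on the cell surface and signal in both directions when they meet Eph receptors on a neighbouring cell. Slits are large secreted proteins that repel cells carrying Robo receptors, and netrins attract through Dcc or repel through Unc5 receptors. Slit and Robo signalling also acts on steroidogenic progenitors of the gonad.

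Total counts ran from 7044531 to 39965574 in control and from 7322959 to 59404778 in cKO libraries. Xist, the RNA of the inactive X chromosome in XX cells, was high (304 to 891 CPM) in 1 control library, replicate 1, and in 3 cKO libraries, replicates 3, 5 and 6. The remaining 8 had 5.15 to 7.68 CPM. The summed level of 5 markers of ovarian supporting cells (Foxl2, Irx3, Irx5, Fst and Bmp2) was 77.0 to 172 CPM in those 4 and 9.56 to 21.3 CPM in the rest. Both measures go against the testis label of those 4 pools, while their summed Sertoli markers (569 to 814 CPM) lay within the range of the rest (556 to 1028 CPM), and they are called control or cKO testes here as labelled. Results are therefore also given for the 8 libraries with low Xist, which were 5 control and 3 cKO. Control libraries differed in base composition, since their deviations from the control mean followed the GC content of the transcript with Spearman rho from -0.488 (replicate 5) and -0.303 (replicate 6) to 0.384 (replicate 4) and 0.418 (replicate 3), across 15224 genes, which are not independent replicates. In cKO libraries, taken from the cKO mean, rho lay between -0.181 and 0.194. The guidance genes are GC-rich (median 56.1% against 50.2% over all genes with a value). Their median deviation on the log2 scale was -0.32 in control replicate 5 and 0.22 in control replicate 1. Each library is a separate pool, and the p-values below measure the spread between pools.

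Guidance genes changed in both directions, and the smallest adjusted p-values in edgeR were those of increases of receptors. Of the 66 genes, 64 passed the filter on low counts. Epha10 (2 to 19 counts per library) and Ntn5 (1 to 13 counts) did not. In cKO relative to control testes, 8 genes were upregulated (Epha4, Unc5d, Plxna2, Robo1, Unc5b, Sema6a, Sema3g and Sema3b) and 2 were downregulated (Sema3d and Sema3c) at an adjusted p under 0.05 in edgeR's quasi-likelihood test. The called share was 15.6% of the tested guidance genes, compared with 8.13% of all 15572 tested genes. Upregulated genes made up 12.5% against 3.28% of all genes, and downregulated genes 3.12% against 4.85%. The median log2 fold change was 0.043 for the guidance genes and 0.0030 for all genes. With 1 library left out it ran from 0.0016 (without control replicate 5, against 0.0064 for all genes) to 0.12 (without control replicate 1, against 0.012). All 5 called receptors were upregulated, out of 30 tested (16.7%, against 3.28% of all genes). A positive log2 fold change was found for 24 of those 30, many of them near 0. Of these, Ephb4, Plxna4, Plxnb1 and Plxnb2 turned negative after correction for GC content. That correction took the receptor median from 0.11 to 0.069, and the median of all genes from 0.0030 to -0.011. Among 34 tested ligands, 3 were upregulated (8.82%) and 2 downregulated (5.88%), with 17 positive and 17 negative values. In whole-testis RNA a change in the number of cells of a type and a change in RNA per cell cannot be told apart.

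**Figure D1:**
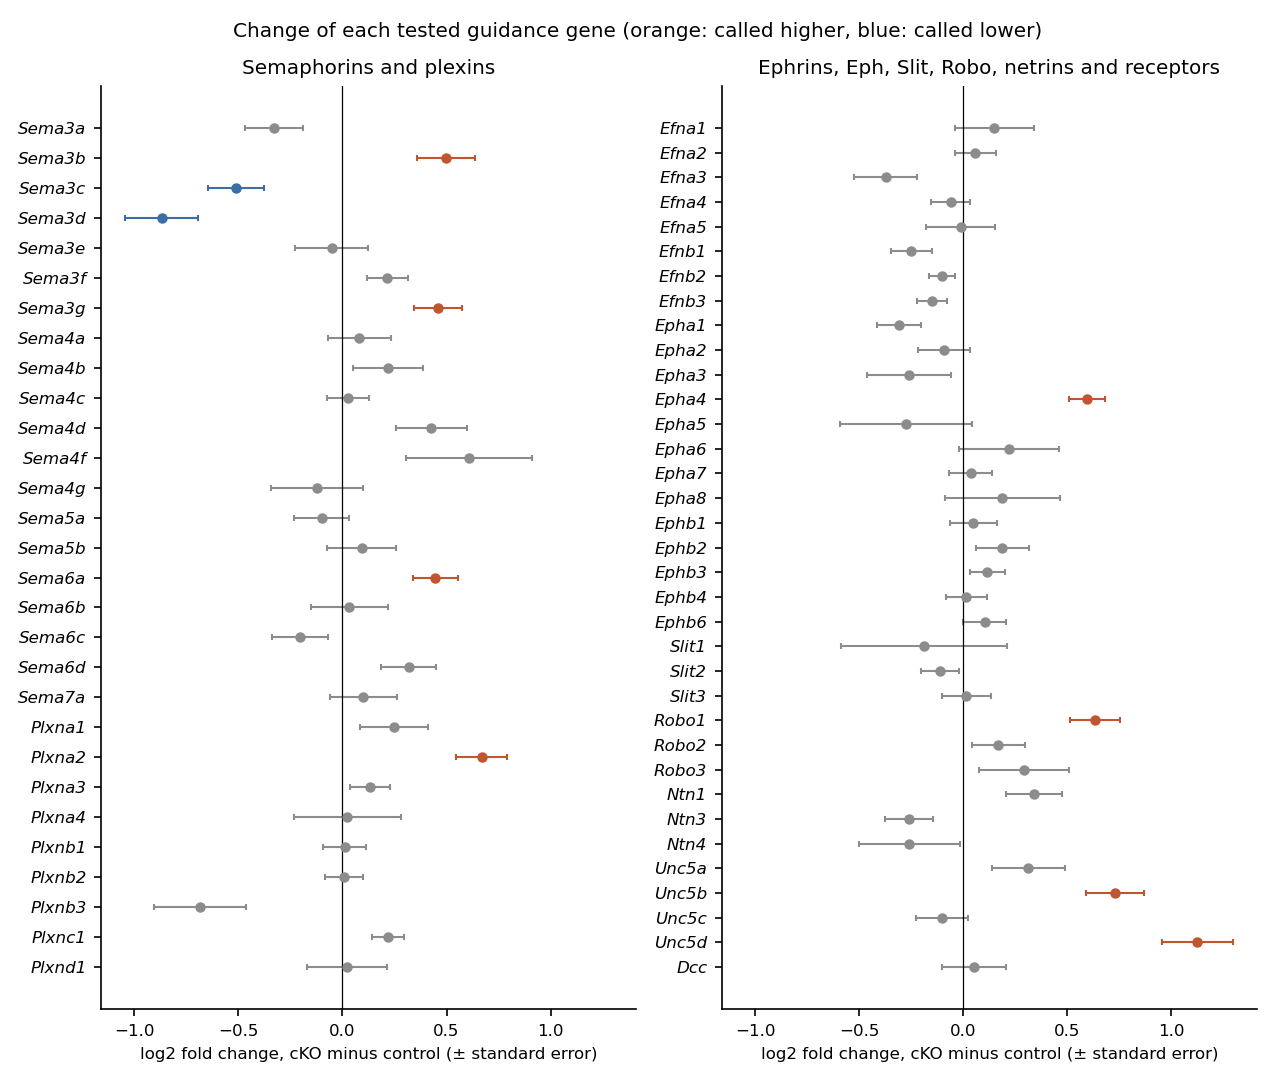
Log2 fold change (cKO minus control, x axis) of each of the 64 tested guidance genes with its standard error, from 6 control and 6 cKO pools. Orange marks the 8 upregulated genes, up to 1.12 for Unc5d, blue marks the 2 downregulated genes, down to -0.87 for Sema3d, and grey marks the others.

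For 5 guidance genes no cKO pool fell within the control range, or 7.81% of those tested, against 5.52% of all genes. Epha4, Robo1, Unc5b and Unc5d lay higher in all 6 cKO pools than in any control pool, and Sema3d lay lower in all 6. With Plxna2, these were also the 6 genes that stayed called under all 22 alternative settings. The windows around the start sites of Epha4, Plxna2, Robo1, Sema3d and Unc5b are shown because these genes carry the main result. Each runs from 250 bases before to 50 bases after the RefSeq start on GRCm38.p6 (the mm10 build of the counts), is written along the gene's own strand from 5′ to 3′, and has GC boxes (GGGCGG or its reverse complement CCGCCC) in capitals. The windows lie at chr1:77515039-77515338 (minus strand, Epha4), chr1:194619579-194619878 (plus, Plxna2), chr16:72662899-72663198 (plus, Robo1), chr5:12382916-12383215 (plus, Sema3d) and chr10:60831532-60831831 (minus, Unc5b).
Epha4: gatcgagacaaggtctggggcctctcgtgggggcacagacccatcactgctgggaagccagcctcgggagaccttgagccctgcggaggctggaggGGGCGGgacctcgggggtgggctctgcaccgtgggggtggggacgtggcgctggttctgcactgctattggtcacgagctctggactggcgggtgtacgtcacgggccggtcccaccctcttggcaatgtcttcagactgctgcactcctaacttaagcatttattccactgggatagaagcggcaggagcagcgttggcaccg
Plxna2: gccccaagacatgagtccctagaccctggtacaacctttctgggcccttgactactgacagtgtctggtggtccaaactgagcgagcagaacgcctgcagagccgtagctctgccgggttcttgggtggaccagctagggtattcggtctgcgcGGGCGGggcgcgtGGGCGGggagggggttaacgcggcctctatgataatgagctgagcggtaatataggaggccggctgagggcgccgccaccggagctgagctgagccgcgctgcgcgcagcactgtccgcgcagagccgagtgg
Robo1: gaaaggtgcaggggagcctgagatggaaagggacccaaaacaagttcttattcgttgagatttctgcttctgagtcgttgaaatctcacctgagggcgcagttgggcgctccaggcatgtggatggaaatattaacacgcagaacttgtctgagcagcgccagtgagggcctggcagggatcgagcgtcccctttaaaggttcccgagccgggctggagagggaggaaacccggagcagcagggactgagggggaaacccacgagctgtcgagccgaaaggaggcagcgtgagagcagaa
Sema3d: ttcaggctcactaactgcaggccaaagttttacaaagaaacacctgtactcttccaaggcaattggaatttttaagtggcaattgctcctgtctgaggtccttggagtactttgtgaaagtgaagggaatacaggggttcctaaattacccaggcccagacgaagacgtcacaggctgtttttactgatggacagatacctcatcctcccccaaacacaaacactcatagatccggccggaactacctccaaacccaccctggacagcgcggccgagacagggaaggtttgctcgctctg
Unc5b: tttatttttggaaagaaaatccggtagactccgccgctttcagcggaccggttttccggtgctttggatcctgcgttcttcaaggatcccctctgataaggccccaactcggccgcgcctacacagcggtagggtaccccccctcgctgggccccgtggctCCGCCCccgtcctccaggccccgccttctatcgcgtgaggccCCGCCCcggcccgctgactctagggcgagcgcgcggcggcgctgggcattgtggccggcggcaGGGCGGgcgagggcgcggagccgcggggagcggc

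A window was found for 56 of the 66 guidance genes and for 7 of the 10 called genes. The GC box occurred once in the window of Epha4, at 2 places in that of Plxna2 and at 3 in that of Unc5b, and was not found in those of Robo1 and Sema3d. Over both strands it was present in 70.8% of the 72 windows of guidance genes and in 35.7% of all 32851 windows. The guidance windows were also richer in GC (median 64.3% against 52.7%) and in CpG dinucleotides (median 19.5 against 7). The windows of Unc5b and Sema3d bracket the GC content of the 5 (69.7% and 49.7%), with 36 and 8 CpG dinucleotides. The letters AGGTCA, a core element to which many nuclear receptors bind, were in none of the 7 windows of called genes on either strand, in 12.5% of the guidance windows and in 16.3% of all windows. The TATA box (TATAAA) was likewise in none of the 7, in 2.78% of the guidance windows and in 13.6% of all windows. These matches describe the letters in short windows only.

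Among the receptors for netrins, Unc5d and Unc5b were upregulated and the attractive receptor Dcc was not called. Unc5d (Entrez Gene 210801, chr8:28646717-29219636) had 1.74, 2.40 and 2.75 CPM as the lowest, median and highest control values and 3.53, 5.06 and 6.53 CPM in cKO testes. Every cKO pool was above every control pool. The mean rose 2.17-fold, with a log2 fold change of 1.12 ± 0.17 (SE, adjusted p = 0.00115). This was the largest fold change among the tested guidance genes, at 0.249 CPM per kilobase of transcript in control testes, one of the lowest levels.

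Unc5b (Entrez Gene 107449, chr10:60762595-60831581), a netrin receptor also known from the vascular endothelium, had 30.5, 43.9 and 64.7 CPM in control and 66.8, 74.2 and 82.8 CPM in cKO testes. The pools were separate, although the highest control pool, replicate 1, came within a few CPM of the lowest cKO pool. The log2 fold change was 0.73 ± 0.14 (SE, adjusted p = 0.00531), or 1.66-fold between means, and 0.96 (adjusted p = 0.0020) in the 8 libraries with low Xist. Unc5c, the most abundant Unc5 gene per length in control testes (9.54 ± 1.82 CPM per kilobase, against 7.66 ± 1.98 for Unc5b), was not called, with 86.7 and 89.0 CPM as control and cKO medians and a log2 fold change of -0.10 (adjusted p = 0.635). Unc5a had medians of 5.47 and 6.40 CPM and a log2 fold change of 0.31 (adjusted p = 0.275). Dcc ranged from 3.24 to 5.20 CPM in control and had a median of 4.24 CPM in cKO testes, with a log2 fold change of 0.052 (95% interval -0.25 to 0.35, adjusted p = 0.857). Of the 4 Unc5 genes, 2 were therefore upregulated and the pools of the other two overlapped.

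None of the 3 tested netrins was called. Ntn1, the founding secreted netrin, had a control range of 12.2 to 24.2 CPM (median 19.6) and a cKO range of 20.9 to 28.3 CPM (median 24.7), with 3 cKO pools above every control pool. Its log2 fold change was 0.34 ± 0.13 (SE, adjusted p = 0.134). Ntn3 had medians of 36.2 and 30.9 CPM and a log2 fold change of -0.26 (adjusted p = 0.177), but its gene model overlaps Tbc1d24 on the same strand, so the assignment of its reads is uncertain. Ntn4, a netrin of basement membranes, had medians of 3.82 and 4.07 CPM and a log2 fold change of -0.26 (adjusted p = 0.524). Its direction rested on control replicate 1, at 9.42 CPM, and was 0.08 on the log2 scale without that library. Ntn5 lay between 0.145 and 0.352 CPM in control and between 0.072 and 0.167 CPM in cKO testes, with 5 cKO pools under every control pool, at no more than 13 counts in a library. It did not pass the filter, and was called lower in the edgeR fit without a filter.

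Robo1 was upregulated while its relatives and the Slit ligands were not called. Robo1 (Entrez Gene 19876, chr16:72663149-73046100), a receptor for Slits, had 70.1, 97.1 and 106 CPM as the lowest, median and highest control values and 119, 147 and 182 CPM in cKO testes. The groups were separate, and the 3 cKO pools with the highest values were those with low Xist. The log2 fold change was 0.63 ± 0.12 (SE, adjusted p = 0.00481), a 1.55-fold rise of the mean. It was 0.82 (adjusted p = 0.00336) in the 8 libraries with low Xist and 0.62 (adjusted p = 0.00497) after correction for GC content.

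Robo2, the most abundant Robo gene per length in control testes (20.7 ± 3.02 CPM per kilobase against 12.5 ± 1.70 for Robo1), ranged from 149 to 206 CPM in control and from 151 to 238 CPM in cKO testes. The groups overlapped, and its log2 fold change was 0.17 (95% interval -0.08 to 0.42, adjusted p = 0.423). Robo3 was near the limit of detection, with medians of 0.512 and 0.607 CPM and a log2 fold change of 0.29 (adjusted p = 0.409). Slit2 was the main Slit transcript, at 19.6 ± 1.66 CPM per kilobase in control testes against 6.28 ± 0.72 for Slit3 and 0.142 ± 0.101 for Slit1. Slit2 had medians of 193 and 183 CPM and a log2 fold change of -0.11 (95% interval -0.29 to 0.068, adjusted p = 0.466). Slit3 had medians of 33.0 and 32.8 CPM and a log2 fold change of 0.016 (95% interval -0.22 to 0.25, adjusted p = 0.952). Slit1 had medians of 0.764 and 0.733 CPM and a log2 fold change of -0.19 with a standard error of 0.40 (adjusted p = 0.793), so only a large change could have been detected. Whether Robo1 differed in its change from Robo2 was not tested.

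**Figure D2:**
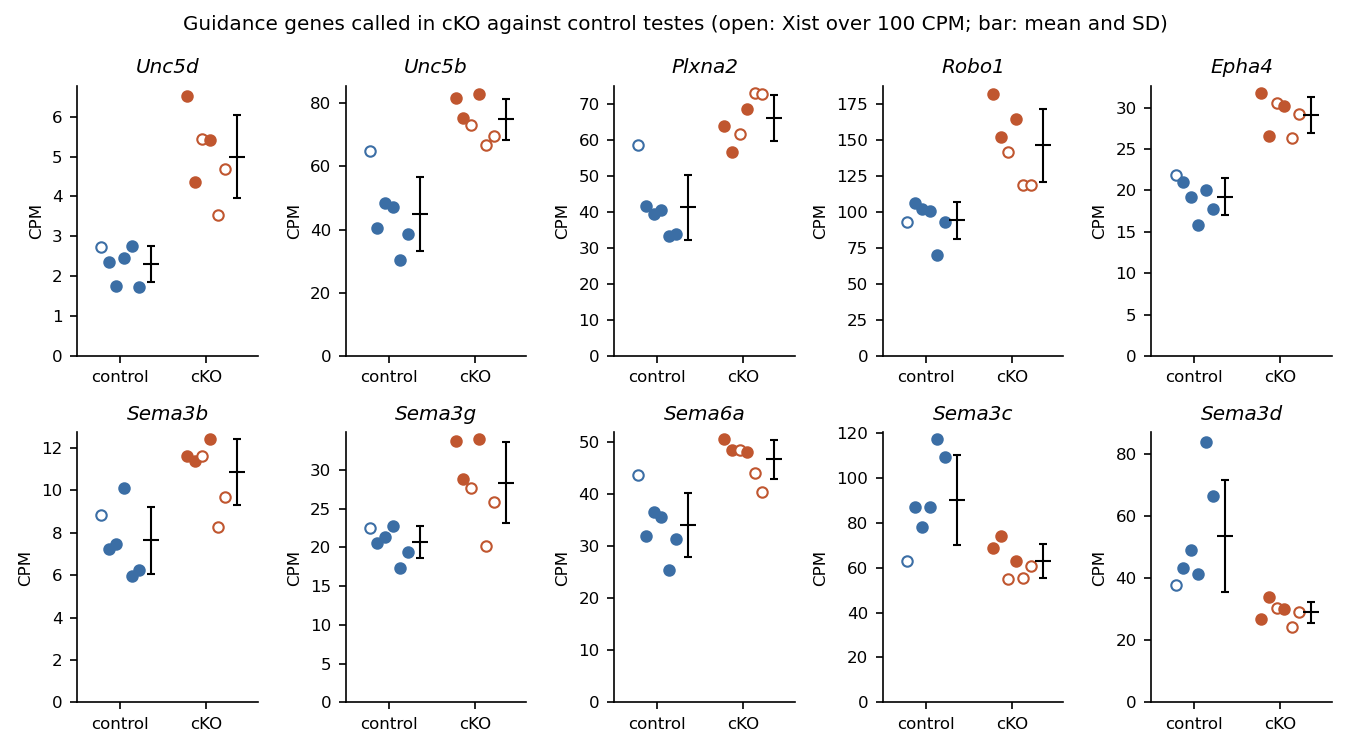
CPM (y axes, from 0) in each of 6 control (blue) and 6 cKO (orange) pools for the 10 called guidance genes, with mean and SD as black bars and open circles for libraries with Xist over 100 CPM. For Unc5d the control pools reach 2.75 CPM and the cKO pools start at 3.53 CPM, while for Sema3c the lowest control pool, at 62.9 CPM, lies among the cKO pools.

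The class 3 semaphorins, the secreted members of the family, held 4 of the 10 called genes and changed in opposite directions. That was 57.1% of the 7 tested, against 8.13% of all genes, but Sema3b, Sema3c and Sema3g lost their calls in some fits without 1 library. Sema3d (Entrez Gene 108151, chr5:12383166-12588943) had 37.7, 46.3 and 84.0 CPM as the lowest, median and highest control values and 24.2, 29.6 and 34.1 CPM in cKO testes. The groups did not overlap, and control pools were more spread than cKO pools (SD 18.0 against 3.38 CPM). Its log2 fold change was -0.87 ± 0.18 (SE, adjusted p = 0.00734), and -0.89 (adjusted p = 0.0347) in the 8 libraries with low Xist.

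Sema3c (Entrez Gene 20348, chr5:17574816-17730268), known for its part in outflow tract development, had 62.9, 87.0 and 117 CPM in control and 55.1, 62.0 and 74.2 CPM in cKO testes. The groups overlapped, since control replicate 1, which had high Xist, lay within the cKO range. The log2 fold change was -0.51 ± 0.13 (SE, adjusted p = 0.0297). The call was lost in the 8 libraries with low Xist (-0.47, adjusted p = 0.0576) and in 8 of 12 fits without 1 library each, with an adjusted p of up to 0.0739. Those 8 were the fits without control replicates 2, 4, 5 and 6 and without cKO replicates 3, 4, 5 and 6.

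Sema3g (Entrez Gene 218877, chr14:31217873-31229511), known from arterial endothelium, had 17.4, 21.03 and 22.8 CPM in control and 20.2, 28.3 and 34.0 CPM in cKO testes, with 5 of 6 cKO pools above every control pool. In edgeR this was a log2 fold change of 0.46 ± 0.12 (SE, adjusted p = 0.0259), and 0.66 (adjusted p = 0.00375) with the 8 low-Xist libraries. The call was lost without control replicates 2 or 6 and without cKO replicates 1 or 4 (adjusted p up to 0.0656). Sema3b (Entrez Gene 20347, chr9:107597674-107609241) had 5.97, 7.35 and 10.1 CPM in control and 8.28, 11.5 and 12.4 CPM in cKO testes, with 4 cKO pools above every control pool. It had a log2 fold change of 0.50 ± 0.14 (SE, adjusted p = 0.0402). It kept its call in only 3 of the 12 fits, those without control replicates 1 or 4 or cKO replicate 5, and its adjusted p reached 0.0928 without cKO replicate 4.

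The class 3 genes are given by chromosome, a split that was noticed after the values were seen and was not tested. Sema3a, Sema3c, Sema3d and Sema3e lie on chromosome 5 between 12383166 and 17730268, and all had a negative log2 fold change, from -0.87 to -0.051. Sema3b and Sema3f on chromosome 9 and Sema3g on chromosome 14 all had a positive one, from 0.22 to 0.50. Both sets kept their signs in the medians from the 8 libraries with low Xist (-0.43 and 0.66) and after GC correction (-0.39 and 0.42). Those fits reuse the libraries in which the split was noticed, so they do not test it. The chromosome 5 transcripts also have a low GC content (39.2% to 42.7%) and the others a high one (56.2% to 58.4%). For each chromosome 5 gene the highest control pools were replicates 5 and 6, whose correlation with GC content was most negative (rho -0.488 and -0.303). Sema3d had 84.0 and 66.5 CPM in them and 37.7 to 49.2 CPM in the other control pools. The part of base composition in this split was not tested. Of the genes not called, Sema3a had an adjusted p of 0.161, Sema3f of 0.185 and Sema3e of 0.878. The value of Sema3e turned positive with limma-voom (0.071) and with Xist as a covariate (0.025), and ran from -0.14 to 0.070 with 1 library left out.

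The membrane-bound semaphorins gave 1 called gene. Sema6a (Entrez Gene 20358), a transmembrane semaphorin that binds A-type plexins, had 25.5, 33.8 and 43.7 CPM as the lowest, median and highest control values and 40.5, 48.2 and 50.6 CPM in cKO testes. In 5 of 6 cKO pools it was above every control pool, the highest of which was replicate 1. The log2 fold change was 0.45 ± 0.11 (SE, adjusted p = 0.0216), and 0.61 (adjusted p = 0.00725) with the 8 low-Xist libraries. The call was lost without control replicates 2 or 6 and without cKO replicate 1 (adjusted p up to 0.0523). Sema6d, the class 6 gene with the highest mean over all libraries, had medians of 79.4 and 101 CPM and a log2 fold change of 0.32 (adjusted p = 0.153). It passed the threshold in the 8 libraries with low Xist (0.43, adjusted p = 0.0472).

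None of the 6 tested class 4 genes was called, and 5 of them had positive values. Sema4b, the highest of them by mean CPM over all 12 libraries although Sema4c was higher in control testes (45.4 against 43.2 CPM), had medians of 41.0 and 49.1 CPM and a log2 fold change of 0.22 (adjusted p = 0.431). Without control replicate 1 it was 0.39 and called (edgeR adjusted p = 0.0467), in a fit that called 3106 genes over all. In class 5, Sema5a had medians of 147 and 137 CPM and a log2 fold change of -0.10 (adjusted p = 0.663). Sema7a, the single class 7 gene and the only one anchored by a glycolipid, had medians of 71.4 and 71.9 CPM and a log2 fold change of 0.099 (adjusted p = 0.729). Each of these groups overlapped between genotypes.

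Of 9 plexins, Plxna2 alone was called. A positive log2 fold change was found for 8 of the 9, but Plxna4, Plxnb1, Plxnb2 and Plxnd1 did not exceed 0.024. After GC correction Plxna4, Plxnb1 and Plxnb2 were negative, and the plexin median went from 0.024 to 0.0043. Plxna2 (Entrez Gene 18845, chr1:194619829-194816869), a receptor for class 6 semaphorins and, with neuropilins, for class 3 semaphorins, had 33.4, 40.0 and 58.5 CPM as the lowest, median and highest control values and 56.7, 66.3 and 73.0 CPM in cKO testes. The overlap came from a single control pool, replicate 1, and the 5 other control pools (33.4 to 41.8 CPM) lay under every cKO pool. Plxna2 had a log2 fold change of 0.67 ± 0.12 (SE, adjusted p = 0.00407). It was 0.74 (adjusted p = 0.0020) in the 8 libraries with low Xist.

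Plxnb3 had the most negative value among receptors, with medians of 3.53 and 1.94 CPM and a log2 fold change of -0.69 (standard error 0.22). In 5 of 6 cKO pools it was under every control pool. It was not called by edgeR (adjusted p = 0.0727) but was called by DESeq2 (adjusted p = 0.0225) and limma-voom (adjusted p = 0.0350). In the 8 libraries with low Xist its log2 fold change was -0.44 (adjusted p = 0.200), and Plxnb3 lies on the X chromosome. Plxnc1, the receptor for Sema7a, had medians of 145 and 158 CPM and a log2 fold change of 0.22 (adjusted p = 0.0946), and passed the threshold in the 8 libraries with low Xist (0.33, adjusted p = 0.0402) and with Xist as a covariate (0.26, adjusted p = 0.0337). The abundant plexins were not called. Plxna1 had medians of 262 and 295 CPM (log2 fold change 0.25, 95% interval -0.072 to 0.57), Plxnb2 of 339 and 355 CPM (0.0084, 95% interval -0.17 to 0.19) and Plxnd1, a receptor of endothelial cells, of 213 and 235 CPM (0.020, 95% interval -0.36 to 0.40). In the 8 libraries with low Xist they had values of 0.41, 0.14 and 0.32, and none was called.

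Epha4 was the only called gene among 13 tested Eph receptors and 8 ephrins. Epha4 (Entrez Gene 13838, chr1:77367185-77515088), a receptor that binds ephrins of both classes, had 15.8, 19.6 and 21.8 CPM as the lowest, median and highest control values and 26.3, 29.7 and 31.8 CPM in cKO testes. The groups were separate, and cKO pools with high and low Xist were interleaved. The mean rose 1.51-fold, with a log2 fold change of 0.60 ± 0.087 (SE, adjusted p = 0.000889), the smallest adjusted p among the guidance genes. It stayed between 0.54 and 0.63 when any single library was left out.

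The 7 other tested A-type Eph genes were not called, with 3 positive and 4 negative values. Epha3, the most abundant over all libraries, had a control range of 30.4 to 80.0 CPM and medians of 37.3 and 36.9 CPM, with a log2 fold change of -0.26 (adjusted p = 0.436). The highest control value was that of replicate 5, and the log2 fold change was -0.023 without that library. Epha8 was called in the 8 libraries with low Xist (adjusted p = 0.0453), at a control mean of 1.58 CPM. All 5 B-type Eph genes had small positive values (0.015 to 0.19), and Ephb4, the receptor of venous endothelium, had medians of 129 and 133 CPM and a log2 fold change of 0.015 (95% interval -0.17 to 0.20).

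The 3 B-type ephrins all had negative values (-0.25 to -0.10), and none was called. Efnb1, an X-linked gene and the most abundant ephrin, had 125, 174 and 187 CPM as the lowest, median and highest control values and 121, 143 and 163 CPM in cKO testes. The overlap came from control replicate 5, which had the most negative correlation with GC content, and the 5 other control pools (169 to 187 CPM) lay above every cKO pool. The log2 fold change was -0.25 (adjusted p = 0.140), and it passed the threshold after GC correction (-0.29, adjusted p = 0.0211). In the 8 libraries with low Xist it was -0.13 (adjusted p = 0.491). Efna5, the most abundant A-type ephrin by counts, had medians of 45.4 and 49.3 CPM and a log2 fold change of -0.011 (95% interval -0.34 to 0.31).

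Levels were compared between genes per kilobase of the longest annotated coding transcript. In control testes Plxnb2 (53.5 ± 8.28 CPM per kilobase, SD, n = 6 pools) and Efnb1 (52.0 ± 7.01) were the highest and did not differ beyond their spread. Plxnd1 (32.1 ± 10.1), Ephb4 (29.8 ± 4.63) and Plxna1 (26.5 ± 7.29) followed, again within their spread of each other. Sema6c (20.99 ± 4.21), Robo2 (20.7 ± 3.02), Sema7a (19.8 ± 5.02), Slit2 (19.6 ± 1.66), Plxnc1 (19.2 ± 1.33) and Sema5b (19.0 ± 5.79) came next. The receptor Robo2 and its ligand Slit2 were thus present at like levels, and the plexins held 3 of the 5 highest places. At the low end were Robo3 (0.110 ± 0.025), Epha5 (0.123 ± 0.029), Slit1 (0.142 ± 0.101), Epha6 (0.227 ± 0.049) and Unc5d (0.249 ± 0.049). The untested Epha10 was lower still, at 0.068 ± 0.032. Of the called genes only Sema3c (16.4 ± 3.63) and Robo1 (12.5 ± 1.70) exceeded 10 CPM per kilobase in control testes.

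**Figure D3:**
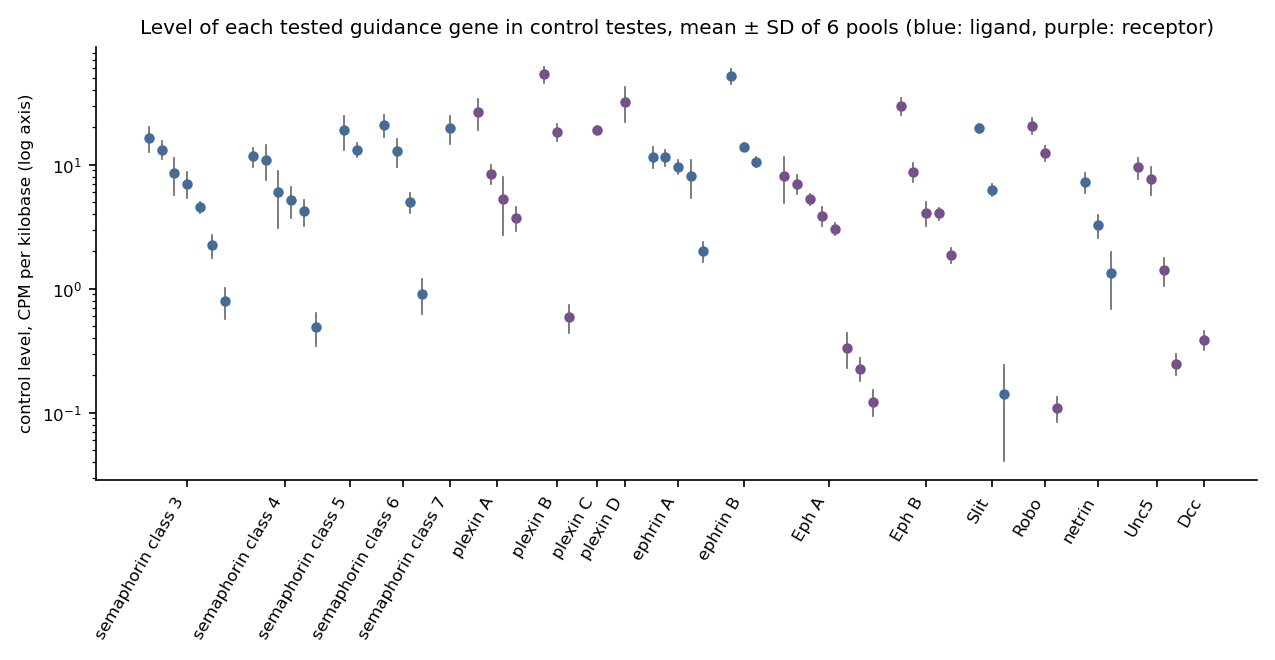
Control level of each of the 64 tested guidance genes in CPM per kilobase (log axis), as mean ± SD of 6 pools, ordered by level within each family (x axis), with ligands in blue and receptors in purple. Levels run from 0.110 for Robo3 to 53.5 for Plxnb2.

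The co-receptors, related guidance molecules and intracellular effectors of these pathways were examined as a list of 81 further genes, of which 79 were tested. Of these, 4 were upregulated (5.06%) and 3 downregulated (3.80%), against 3.28% and 4.85% of all genes, and their median was 0.051 on the log2 scale, against 0.0030 for all genes. The netrin G proteins, which are membrane-anchored and bind their own ligands rather than Dcc or Unc5, both rose. Ntng1 went from 8.26 ± 1.76 to 15.3 ± 1.96 CPM (log2 fold change 0.87, standard error 0.14, adjusted p = 0.00162). Ntng2 went from 5.24 ± 1.14 to 10.3 ± 1.96 CPM (0.97, standard error 0.16, adjusted p = 0.00174). The cKO pools of both genes were all above the control pools.

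Among the effectors of semaphorin signalling, Mical2, an enzyme that oxidises actin, rose from 153 ± 34.5 to 275 ± 47.1 CPM (log2 fold change 0.84, adjusted p = 0.00412). The collapsin response mediators Dpysl5 and Dpysl3 changed in opposite directions, with log2 fold changes of 0.63 (adjusted p = 0.0174) and -0.99 (adjusted p = 0.000437). Cdon, a cell surface protein that also binds hedgehog ligands, fell slightly (-0.27, adjusted p = 0.0127), and Grb10, an adaptor of receptor tyrosine kinases, fell by 0.38 on the log2 scale (adjusted p = 0.0105). Cdon and Grb10 lost their calls in the 8 libraries with low Xist at log2 fold changes of -0.25 and -0.30 (adjusted p = 0.0597 and 0.0641). The neuropilins were not called. Nrp1 had 85.5 ± 10.4 and 98.7 ± 9.72 CPM (log2 fold change 0.21, adjusted p = 0.163) and passed the threshold in the 8 libraries with low Xist (0.35, adjusted p = 0.0330). Nrp2 had 49.3 ± 5.62 and 43.3 ± 4.89 CPM (-0.19, adjusted p = 0.206). Neo1, a netrin receptor related to Dcc, had 311 ± 32.9 and 299 ± 20.5 CPM (-0.060, adjusted p = 0.646).

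Without the 4 libraries with high Xist, the called genes were 11 upregulated and 1 downregulated of the 64 tested. In that comparison 3.68% of all tested genes were upregulated and 3.39% downregulated. The 8 genes upregulated in the 12-library comparison kept their calls, and Epha8, Plxnc1 and Sema6d were added, whereas Sema3c was lost. The median log2 fold change of the guidance genes was 0.16, against 0.0069 over all genes. After correction for GC content, 8 genes were upregulated and 3 downregulated, the added one being Efnb1, where 3.95% of all genes were upregulated and 6.39% downregulated, and the median was 0.020.

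**Figure D4:**
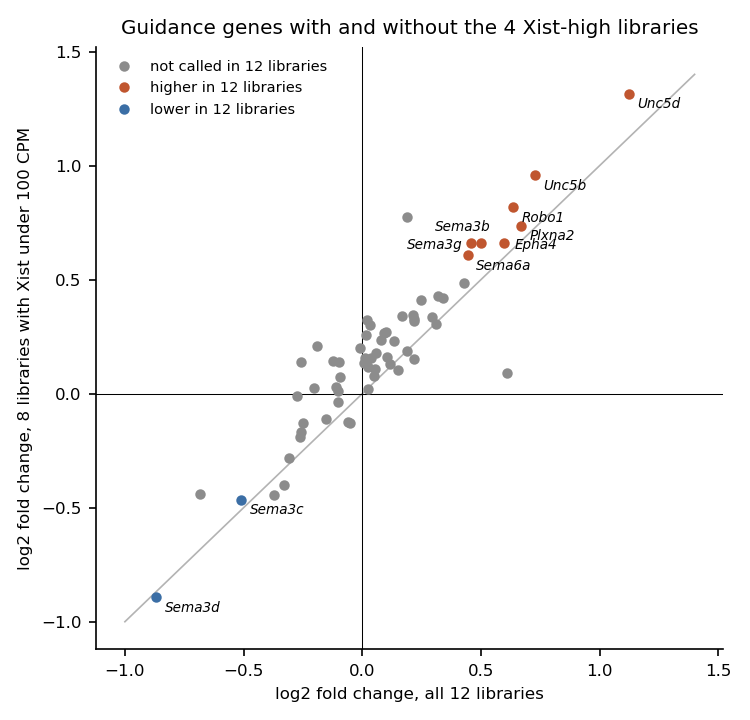
Log2 fold change (cKO minus control) of the 64 tested guidance genes in all 12 libraries (x axis) and after leaving out the 4 with Xist over 100 CPM (y axis), where the grey line marks equal values and colours mark calls in 12 libraries. All 8 upregulated genes (orange) lie above the line, with Unc5d at 1.12 and 1.31, and the 2 downregulated genes (blue) stay negative.

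Cell type markers moved with the genotype in the same libraries. All 5 contractile markers were downregulated (summed level 563 to 692 CPM in control and 335 to 514 CPM in cKO pools), as were 4 of 5 fetal Leydig markers (1561 to 2910 and 841 to 1745 CPM) and 3 of 5 interstitial markers, Nr2f2 among them (1110 to 1417 and 630 to 1139 CPM). Of 5 macrophage markers 2 were upregulated (28.1 to 37.6 and 42.6 to 54.4 CPM), as were 2 of 5 markers of mesonephric epithelium (45.7 to 85.9 and 44.3 to 70.0 CPM). The latter were Pax8 and Lhx1, with group means of 3.79 to 8.60 CPM. Most of the mesonephric sum was Emx2, at a mean of 44.9 CPM in control and 40.3 CPM in cKO pools. Emx2 was not called (log2 fold change -0.17, edgeR adjusted p = 0.624), so the sum mainly follows that gene. The mesonephric sum also split by Xist, with 44.3 to 54.4 CPM in the 8 low-Xist and 60.2 to 85.9 CPM in the 4 high-Xist libraries, and the fetal Leydig sum was 1311 to 2910 CPM in the former and 841 to 1561 CPM in the latter. One of 5 endothelial markers was downregulated (309 to 441 and 310 to 376 CPM). No Sertoli (556 to 1028 and 569 to 1011 CPM), germ cell (1066 to 1980 and 1471 to 1820 CPM) or Schwann cell and glia marker (36.8 to 58.8 and 39.3 to 49.3 CPM) was called, and no marker of ovarian supporting cells was. The summed level of the ovarian list was 9.56 to 172 CPM in control and 14.9 to 122.5 CPM in cKO pools. The mesonephric marker Cdh16 was at 0 in 1 library. The part of these cell types in the changes of the guidance genes was not tested.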

How the data were processed

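RNA was isolated from 6 control and 6 Nr2f2 cKO pools of 3 testes, and 1 strand-specific library was made per pool. The authors trimmed the read pairs (Trim Galore 0.6.7), aligned them to mm10 (STAR 2.5), counted them by strand on RefSeq Curated genes (featureCounts of Subread 1.5.0-p1) and deposited raw counts without normalization. The authors compared groups with DESeq2.

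The analysis used edgeR 4.0.16 in R 4.3.3, with TMM scaling, filterByExpr (minimum count 10, minimum total 15), glmQLFit and glmQLFTest over 15572 genes without covariates. Benjamini-Hochberg adjustment ran over all tested genes, with a threshold of 0.05. The standard error was the size of the log2 fold change divided by the square root of F, and the biological coefficient of variation was 0.17. Levels per kilobase used the longest coding transcript of GENCODE M21.

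The members and lists were chosen with earlier results of these data known. Genes were named if they were a tested Slit, Robo, netrin, Unc5 or Dcc gene, were called by edgeR or by DESeq2 alone, or had the highest mean in their subfamily, and pathway partners were named if called. Chosen with their values in view were also the untested Epha10 and Ntn5, Epha8, the class 3 semaphorins beyond those called, the extremes of the levels per kilobase, and Nrp1, Nrp2 and Neo1. Alternatives were 2 other scalings, 2 other filters, DESeq2 1.42.0, limma-voom (limma 3.58.1), a replicate block, Xist as a covariate, the 8 libraries with Xist under 100 CPM, leaving out each library, and a correction for GC content by a spline with 4 degrees of freedom, which was added after seeing the data. Promoter windows came from RefSeq (GRCm38.p6). One further marker list is not reported here.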

Additional observations from a re-analysis of the deposited data

Results flagged for a closer look

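Single libraries stood apart from the 5 others of their genotype for 7 of the 34 named guidance genes, in 7 of the 68 groups of 6 libraries examined by Dixon's test, where chance alone gives about 1 in 20. Control replicate 1, which had high Xist, was high for Plxna2 (58.5 CPM against 33.4 to 41.8 in the others) and for Ntn4 (9.42 against 3.09 to 5.21 CPM). Control replicate 5 was low for Efnb1 (125 against 169 to 187 CPM), for Robo1 (70.1 against 93.0 to 106 CPM) and for Sema5a (107 against 143 to 163 CPM). The cKO replicate 3, which also had high Xist, was high for Sema4b (61.4 against 44.4 to 50.1 CPM) and for Sema6d (114 against 99.5 to 102 CPM). Plxna2 and Robo1 stayed called without these libraries.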

How the results depend on the processing

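Epha4, Plxna2, Robo1, Sema3d, Unc5b and Unc5d kept their direction and call under all 22 alternatives. Among 746 values of named guidance genes under alternatives, 27 lost and 12 gained a call, and 43 values of 12 genes changed sign without a call on either side. Other scalings gave the same 8 upregulated and 2 downregulated genes. With 1 library left out, upregulated guidance genes numbered 5 to 12 (5 without control replicates 2 or 6 or cKO replicate 1), downregulated ones 1 to 4 (4 without control replicate 1, and 1 without control replicates 2, 4 or 6 or cKO replicates 3, 4, 5 or 6), upregulated partners 4 to 14 (14 without control replicate 1) and all called genes 816 to 3106 (without cKO replicate 4 and control replicate 1). Without control replicate 1, 1471 of all genes were upregulated and 1635 downregulated, against 510 and 756 with all 12 libraries. The higher counts in that fit were thus shared by genes outside these lists. The 8 libraries with low Xist gave 1 downregulated guidance gene, a median of 0.16 and 8 upregulated partners, where 3.68% of all genes were upregulated. DESeq2 called 1919 genes (878 upregulated and 1041 downregulated), and 7 partners in each direction. Downregulated partners numbered 6 with Xist as a covariate (717 of all genes) and 5 after GC correction (995 of all genes). Without a filter Ntn5 was called lower and Sema3b lost its call. Replicate numbers did not pair the libraries (correlations of same-numbered deviations -0.33 to 0.24), and with the replicate block 1 guidance gene was downregulated, Sema3c losing its call. The cause of these shifts was not tested. Depth limits the lowest genes most, such as Epha10 and Ntn5, which had at most 19 and 13 counts per library.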
